A study of Mus musculus with 11 samples.

Results

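Regulatory T cells (Tregs) of visceral adipose tissue (VAT) were compared between mice with a floxed and with an intact Srebf2 gene, over all genes and by gene family. The members were the 6 VAT libraries of the series, 3 from Srebf2-flox/flox mice (VAT KO) and 3 from Srebf2-WT/WT mice (VAT WT), out of 11 samples in the labels, of which 10 have a column in the deposited table. Of the 10992 genes in that table, 10081 had at least 1 RPKM (reads scaled to the length of the gene and to the depth of the library) in at least 2 of the 6 VAT libraries and were tested. All mice were male, 25 weeks old and carried Foxp3-YFPcre, a Cre recombinase expressed from Foxp3, so the WT cells carried the Cre as well. The cells were live CD3+ CD4+ Foxp3+ cells sorted by flow cytometry. Spleen Tregs of the same genotypes (2 WT and 2 KO libraries, replicates 2 and 3 of each) are used below for side-by-side values. Whether a group's libraries stem from different mice is not stated in the labels. The p-values therefore measure the variation among these particular samples, part of which may be technical. The labels also do not say which exons of Srebf2 are flanked by loxP sites. In bulk samples fewer cells of a type and less RNA per cell cannot be told apart.

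Srebf2 encodes SREBP2, a transcription factor held in the membrane of the endoplasmic reticulum while sterols are plentiful. When sterols run low, SREBP2 travels with its escort to the Golgi, where it is cleaved, and the released part enters the nucleus and drives genes of cholesterol synthesis and uptake, often together with the CCAAT-binding factor NF-Y. VAT Tregs are a tissue-resident Treg population that depends on PPAR-gamma (Pparg) and IL-33 signalling and differs widely in expression from Tregs of lymphoid organs.

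The promoters of Hmgcs1, Idi1 and Cyp51 are shown because the results turn most on sterol genes. Each line gives the 150 bases that end just before the annotated start, from RefSeq on GRCm38.p6 (mm10), 5′ to 3′ on the strand of the gene. Capitals mark CCAAT, read on either strand (ATTGG on the other), and TCACNCCA, a short form of the sterol regulatory element TCACNCCAC.
Hmgcs1: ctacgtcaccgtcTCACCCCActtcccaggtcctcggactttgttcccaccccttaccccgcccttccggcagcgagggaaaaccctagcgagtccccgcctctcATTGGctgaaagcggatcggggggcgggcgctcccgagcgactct
Idi1: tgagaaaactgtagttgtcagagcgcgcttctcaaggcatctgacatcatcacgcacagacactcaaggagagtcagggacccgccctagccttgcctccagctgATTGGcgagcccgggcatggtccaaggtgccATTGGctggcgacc
Cyp51: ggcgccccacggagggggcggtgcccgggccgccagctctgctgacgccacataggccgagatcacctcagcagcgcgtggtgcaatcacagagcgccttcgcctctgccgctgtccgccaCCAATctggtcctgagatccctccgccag
They lie at chr13:119690201-119690350 (plus strand), chr13:8885456-8885605 (plus strand) and chr5:4104698-4104847 (minus strand). Promoters of 250 bases before to 50 after the start were found for 8167 of the 10081 tested genes and for 16 of the 21 measured cholesterol synthesis genes. CCAAT was present on one of the strands in 15 of these 16 (93.8%), against 43.3% of all 8167. It was present in 6 of the 9 lower called genes with a promoter (66.7%) and in 12 of the 28 higher ones (42.9%). TCACNCCA, of which TCACNCCAC is the extension by 1 base, was found in Hmgcs1 and Msmo1 (12.5% of the 16, against 4.32% of all), and the longer form in Hmgcs1 alone (6.25%, against 1.37%). These are matches of letters and not measured sites.

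The sort markers were alike in the 6 libraries. The 9 measured T cell and Treg markers, of 12 listed, summed to between 1119 and 1160 RPKM in VAT WT and between 1101 and 1164 in VAT KO. Foxp3 stood at 15.3 ± 0.534 RPKM in VAT WT and 15.2 ± 1.67 in VAT KO (SD, n = 3 each), a log2 change of -0.01 ± 0.15 (SE, limma; exact two-sided permutation p = 1.00), which turned to between 0.00 and 0.08 without VAT WT replicate 1 or 2 or VAT KO replicate 2. RPKM sums ran from 189920 to 198811 in VAT, and 9586 to 9774 genes reached 1 RPKM in a library. Read depth is unknown, and the labels give no batch or date. Across genes, log2(RPKM + 1) values correlated at 0.966 to 0.972 within a genotype and at 0.952 to 0.972 between genotypes.

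Few genes changed, and most changes were modest. In VAT KO 32 genes were higher and 12 were lower at a Benjamini-Hochberg adjusted p under 0.05 from limma on log2(RPKM + 1), which is 0.436% of tested genes (0.317% higher and 0.119% lower). The 3 KO values lay wholly apart from the 3 WT values in all 44. The calls rest on these same values, so the separation is no further evidence for them. Over all tested genes the KO values lay wholly above the WT values in 8.92% and wholly below in 6.27%, and this is the background against which the counts for gene families below should be read. The log2 changes had a median of 0.02 and an SD of 0.29, with the 5th percentile at -0.41 and the 95th at 0.46. The change was above 1 in 66 genes and below -1 in 28. None of the 300 genes that averaged 100 RPKM or more in either VAT group was called in this model (Klrg1, Fos, Gm2a and Lgals3 passed in the fit of the 6 VAT libraries alone), and the largest change among these was 0.83, for the chemokine receptor Cxcr3, whose groups overlapped. Changes are given throughout as differences of log2(RPKM + 1), a scale on which low genes appear to change less than they do.

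**Figure D1:**
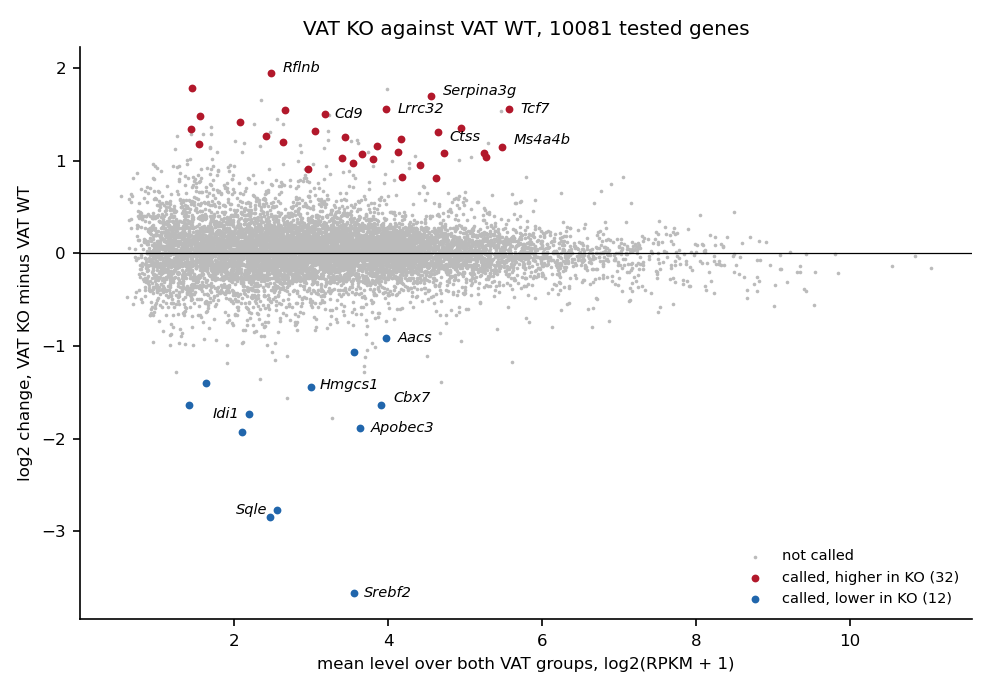
Log2 change of VAT KO against VAT WT for each of the 10081 tested genes (vertical) against its mean level over both VAT groups as log2(RPKM + 1) (horizontal). Red points are the 32 called higher and blue points the 12 called lower; most genes lie between -0.41 and 0.46, and the lowest point is Srebf2.

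The targeted gene was lost, and enzymes of cholesterol synthesis fell with it. Srebf2 stood at 16.599, 15.583 and 30.532 RPKM in VAT WT replicates 1 to 3 and at 0.263, 0.6 and 1.228 in VAT KO replicates 1 to 3. The KO libraries were far below every WT library, and WT replicate 3 was the highest. The log2 change was -3.67 ± 0.33 (SE; limma adjusted p = 0.000823), and the exact two-sided permutation p was 0.1, the smallest that 3 against 3 allow. A value per gene also counts exons that may lie outside the floxed part, so it does not measure the share of intact alleles.

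Sqle, squalene epoxidase, which adds the oxygen that starts the sterol-forming steps of the pathway, had 8.095, 8.835 and 10.793 RPKM in VAT WT and 0.698, 0.19 and 0.64 in VAT KO. The KO mean was 5.51% of the WT mean, the deepest fall among the enzymes named here, and the log2 change was -2.77 ± 0.31 (limma adjusted p = 0.00515). Idi1, which isomerises isopentenyl diphosphate into the starter of the isoprenoid chain, had 5.237, 4.558 and 8.435 RPKM in WT and 1.395, 0.83 and 0.994 in KO. All 3 KO values of Idi1 were under 1.4 and no WT value was under 4.5. The log2 change of Idi1 was -1.74 ± 0.27 (limma adjusted p = 0.0149). Hmgcs1, the cytosolic HMG-CoA synthase at the entry of the pathway, had 9.217, 8.447 and 14.458 RPKM in WT and 3.647, 2.832 and 3.219 in KO. Its KO mean was 30.2% of WT (log2 change -1.44 ± 0.25, limma adjusted p = 0.0296). In Idi1 and Hmgcs1, as in Srebf2, WT replicate 3 stood above the other WT libraries.

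Most other enzymes were lower by less, and none of those named in this paragraph passed the test. In the part of the pathway from mevalonate to squalene, the log2 change was -0.46 ± 0.31 for Mvk (mevalonate kinase), -0.21 ± 0.27 for Pmvk (phosphomevalonate kinase), -0.45 ± 0.17 for Mvd (mevalonate diphosphate decarboxylase), -0.83 ± 0.19 for Fdps (farnesyl diphosphate synthase) and -0.52 ± 0.22 for Fdft1 (squalene synthase). Past squalene epoxide, Cyp51, the lanosterol demethylase, had 8.897, 9.625 and 17.436 RPKM in WT and 3.101, 4.283 and 4.101 in KO. Its groups were apart, and its log2 change of -1.38 ± 0.31 missed the threshold (limma adjusted p = 0.114) in the model with the spleen libraries and passed it (adjusted p = 0.0358) in the fit of the 6 VAT libraries alone. Hsd17b7, a sterol ketoreductase, had 6.923, 5.493 and 5.92 RPKM in WT and 3.92, 1.186 and 0.977 in KO, so KO replicate 1 lay between the WT libraries and the other KO libraries (log2 change -1.36 ± 0.37, limma adjusted p = 0.236). The changes were -0.78 ± 0.20 for Msmo1 (methylsterol monooxygenase), -0.77 ± 0.22 for Nsdhl (a sterol dehydrogenase), -0.49 ± 0.15 for Sc5d (sterol desaturase), -0.34 ± 0.21 for Dhcr7 (a sterol reductase), -0.22 ± 0.18 for Ebp (sterol isomerase) and -0.56 ± 0.32 for Lss (lanosterol synthase). Lbr, the lamin B receptor, which also has sterol reductase activity, was the exception, with 66.3 ± 3.04 RPKM in WT and 74.9 ± 4.59 in KO (SD, n = 3 each; log2 change 0.17 ± 0.12).

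Counted over both lists of the pathway, 20 of the 21 measured enzymes had a log2 change below 0, where 45.9% of all tested genes did. Their median change was -0.56, against 0.02 over all tested genes. In 16 of the 21 (76.2%) every KO library was below every WT library, against 6.27% of all genes, and 4 of the 21 passed the test on their own. The 10 enzymes up to squalene epoxide summed to 88.1, 81.8 and 104 RPKM in WT replicates 1 to 3 and to 48.5, 47.0 and 45.8 in KO replicates 1 to 3. The KO libraries were close to each other in this sum and all below the WT libraries.

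**Figure D2:**
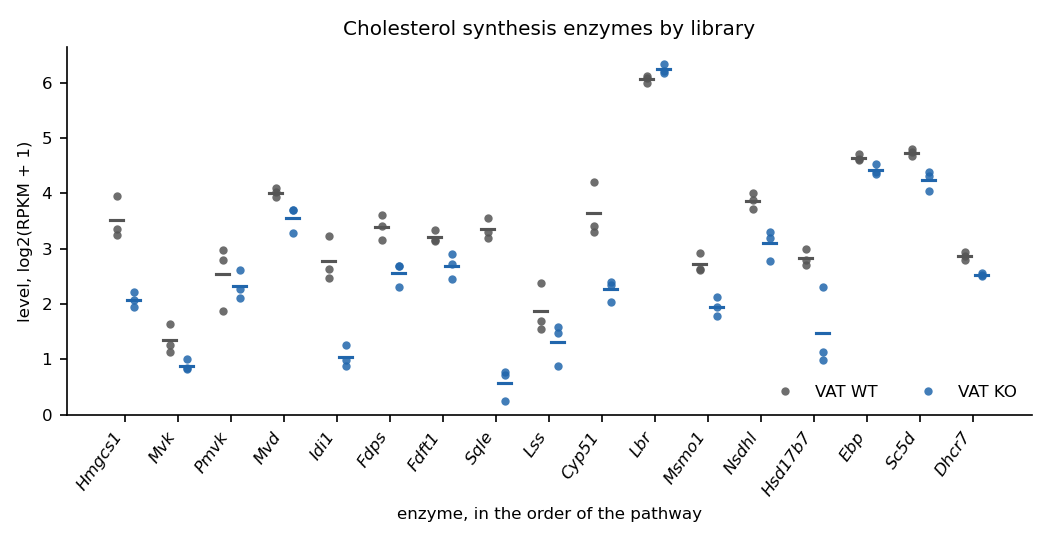
Level as log2(RPKM + 1) of 17 of the 21 measured cholesterol synthesis enzymes in the order of the pathway, 1 point per library, with the mean of each group as a bar. Blue KO points lie below grey WT points for most enzymes, by most for Sqle, while Lbr is slightly higher in KO.

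Genes around the pathway moved less as groups. Of the 12 tested SREBP factors and control genes (this list leaves out Srebf2), none passed the test and the median change was 0.00. In KO 2 lay wholly lower (16.7%, against 6.27% of all genes) and 2 wholly higher (16.7%, against 8.92%). Insig1, which retains the SREBP escort in the endoplasmic reticulum and is itself a sterol-responsive gene, had 14.439, 13.33 and 24.517 RPKM in WT and 12.071, 6.634 and 6.492 in KO. KO replicate 1 was close to the lower WT libraries (log2 change -0.97 ± 0.26, limma adjusted p = 0.236). The ubiquitin ligase genes Rnf145 and Rnf139 stood at -0.46 ± 0.14 and 0.34 ± 0.14. Among 14 genes of sterol uptake and transport 1 fell, with a median of -0.05. In KO 4 of the 14 lay wholly lower (28.6%, against 6.27% of all genes) and 1 wholly higher (7.14%, against 8.92%). Tmem97, a sterol-responsive membrane protein, had 17.1 ± 3.75 RPKM in WT and 6.71 ± 1.02 in KO (SD, n = 3 each; log2 change -1.22 ± 0.32, limma adjusted p = 0.223). It passed in the fit of the 6 VAT libraries alone (limma adjusted p = 0.0217). For sterol storage and efflux (8 tested) and isoprenoid and prenylation enzymes (16 tested) no member passed and both medians were -0.02. Soat2, a sterol esterifying enzyme, was low in both groups at 0.863 ± 0.585 RPKM in WT and 2.28 ± 0.739 in KO. Lpcat3, which remodels phospholipids, stood at -0.52 ± 0.15.

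Fatty acid synthesis, the branch mainly served by the related factor SREBP1, was lower in level without a called gene. Of 16 tested members 13 were below 0, with a median of -0.34, and 5 lay wholly below WT (31.2%, against 6.27% of all genes). Acsl3, an acyl-CoA synthetase, stood at -0.99 ± 0.29, Mid1ip1, an activator of acetyl-CoA carboxylase, at -0.64 ± 0.21, Acss2, which makes acetyl-CoA from acetate, at -0.44 ± 0.17, and Fasn, the fatty acid synthase, at -0.44 ± 0.19. Mitochondrial fatty acid oxidation (19 tested, median -0.06) and lipid uptake and droplets (11 tested, median -0.06) had no called gene. Plin2, which coats lipid droplets, had 141 ± 6.98 RPKM in WT and 111 ± 11.7 in KO (SD, n = 3 each), wholly lower in KO but not called (log2 change -0.34 ± 0.14).

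The remaining falls were in genes outside the sterol pathway proper. Aacs, acetoacetyl-CoA synthetase, which passes ketone body carbon into lipid and sterol synthesis, had 17.02, 20.14 and 21.202 RPKM in VAT WT and 11.274, 8.95 and 9.339 in VAT KO, 50.7% of the WT mean. Its log2 change was -0.91 ± 0.15 (limma adjusted p = 0.0248), and in spleen it stood at 20.9 ± 2.41 RPKM in WT and 22.6 ± 0.141 in KO (SD, n = 2 each). Egln1, the prolyl hydroxylase that marks HIF-1 alpha for degradation, had 14.993, 12.498 and 17.231 RPKM in WT and 6.203, 5.422 and 8.19 in KO (log2 change -1.07 ± 0.20, limma adjusted p = 0.0460). Hif1a itself stood at 67.5 ± 4.33 RPKM in WT and 85.7 ± 6.50 in KO (SD, n = 3 each), wholly higher in KO but not called (log2 change 0.34 ± 0.14). Tmem35a, a chaperone of nicotinic acetylcholine receptors, was at a low level, with 3.176, 3.303 and 2.607 RPKM in WT and 0.212, 0.536 and 0.144 in KO (log2 change -1.64 ± 0.21, limma adjusted p = 0.0112). No spleen library had more than 0.022 RPKM of it. Ccpg1os, named as a transcript opposite Ccpg1, had 3.726, 2.803 and 3.987 RPKM in WT and 0.827, 0.422 and 0.886 in KO (log2 change -1.40 ± 0.21, limma adjusted p = 0.0149). The libraries do not mark the strand, so the source of its reads is uncertain.

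Apobec3 and Cbx7 fell together and are neighbours of each other on the chromosome of Srebf2. Apobec3, a cytidine deaminase that restricts retroviruses, had 16.25, 14.687 and 24.797 RPKM in VAT WT and 4.585, 4.527 and 3.439 in VAT KO. The 3 KO values were close together and below every WT value (log2 change -1.89 ± 0.26, limma adjusted p = 0.0112). Cbx7, a Polycomb protein that reads methylated histone H3, had 17.671, 17.354 and 31.006 RPKM in WT and 6.809, 5.977 and 5.591 in KO (log2 change -1.64 ± 0.31, limma adjusted p = 0.0460). In both, WT replicate 3 was the highest. On mm10, Apobec3 spans chromosome 15 from 79892058 to 79918218 and Cbx7 from 79915804 to 79971143, so their annotated spans overlap and reads from the shared stretch cannot be assigned with certainty. Srebf2 starts at 82147269, 2.23 Mb from Cbx7 and 2.26 Mb from Apobec3. Within 3 Mb of Srebf2, a window chosen after the values were seen, 71 genes were tested, Srebf2 left out. Apobec3 and Cbx7 were the 2 called (2.82%, against 0.436% of all tested genes), and the median log2 change was -0.03. Of the 71, 9 lay wholly lower and 7 wholly higher in KO, where 6.27% and 8.92% of all genes did. Both were also lower in spleen KO, where Apobec3 had 15.391 and 31.921 RPKM in WT and 4.714 and 4.814 in KO, and Cbx7 had 9.701 and 26.457 in WT and 4.015 and 2.965 in KO. Sequence inherited with the floxed allele on this chromosome and the loss of Srebf2 cannot be told apart in this design. Cbx7 was the only call among the 27 tested Polycomb genes, whose median was 0.00, and the next member by p, Cbx6, stood at -0.45 ± 0.26.

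The rises included Tcf7 and Txk of the resting T cell list. Tcf7, which encodes the transcription factor TCF-1 of naive and memory T cells, had 25.587, 19.78 and 22.522 RPKM in VAT WT and 46.572, 82.516 and 82.335 in VAT KO. KO replicate 1 lay between the WT libraries and the other 2 KO libraries (log2 change 1.56 ± 0.22, limma adjusted p = 0.0112). In spleen Tcf7 stood at 182 ± 54.4 RPKM in WT and 216 ± 11.3 in KO (SD, n = 2 each). The annotated span of Tcf7 overlaps that of Skp1. Among the 20 listed resting T cell genes Tcf7 and Txk rose and all 20 changes were above 0, as were 54.1% of all tested genes, with a median of 0.63 against 0.02 over all genes, which was 0.33 with a pseudocount of 5. In 12 of the 20 the groups were apart with KO higher, against 8.92% of all genes. Lef1, the relative of Tcf7, had 9.29 ± 1.44 RPKM in WT and 15.7 ± 1.59 in KO, the chromatin organiser Satb1 had 0.762 ± 0.361 and 2.60 ± 0.920, and the repressor Klf3 had 12.2 ± 4.29 and 24.6 ± 5.07 (SD, n = 3 each), none of which passed the test. Aff3, a nuclear protein of the AF4 family, rose from 0.514 ± 0.0570 to 2.89 ± 0.661 RPKM (SD, n = 3 each; log2 change 1.35 ± 0.19, limma adjusted p = 0.0112).

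Adaptors and a kinase of the T cell receptor rose. Txk, a Tec family kinase, had 0.822, 1.264 and 1.75 RPKM in WT and 3.607, 5.416 and 6.401 in KO (log2 change 1.42 ± 0.22, limma adjusted p = 0.0172). Trat1, a transmembrane adaptor that associates with the receptor, had 1.693, 1.548 and 3.446 RPKM in WT and 5.776, 8.167 and 11.385 in KO (log2 change 1.55 ± 0.28, limma adjusted p = 0.0367). Both were lowest in KO replicate 1 among the KO libraries and did not overlap between genotypes. Lax1, a membrane adaptor that limits lymphocyte activation, rose from 9.78 ± 2.54 to 24.2 ± 3.69 RPKM (SD, n = 3 each; log2 change 1.24 ± 0.19, limma adjusted p = 0.0149). Of the 29 tested genes of proximal receptor signalling 2 rose and 26 were above 0, where 54.1% of all tested genes were. In KO 10 lay wholly higher (34.5%, against 8.92% of all genes), but the median was only 0.12. Ptpn22, a phosphatase that restrains the receptor, had 58.5 ± 12.2 RPKM in WT and 90.8 ± 4.51 in KO (SD, n = 3 each), and Sh2d1a, the adaptor of SLAM receptors, stood at 0.78 ± 0.23 on the log2 scale. Neither passed the test.

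Surface receptors made up a further set of rises. Lrrc32 encodes GARP, which holds latent TGF-beta on the Treg surface, and had 6.058, 5.991 and 8.69 RPKM in WT and 16.133, 29.35 and 22.447 in KO (log2 change 1.56 ± 0.23, limma adjusted p = 0.0144). Cd9, a tetraspanin, had 4.185, 3.106 and 3.207 RPKM in WT and 7.005, 12.439 and 18.43 in KO, so its KO libraries spread widely while none reached down to a WT value (log2 change 1.51 ± 0.27, limma adjusted p = 0.0361). Cd96, a receptor of nectin-like ligands, had 17.603, 11.301 and 19.432 RPKM in WT and 28.676, 48.556 and 52.83 in KO (log2 change 1.36 ± 0.23, limma adjusted p = 0.0296). Slamf6, a receptor that binds its own kind on other lymphocytes, had 6.315, 4.124 and 5.71 RPKM in WT and 10.147, 16.33 and 16.8 in KO (log2 change 1.26 ± 0.20, limma adjusted p = 0.0208). In all 4 genes KO replicate 1 was the lowest KO library. Ptger2, the prostaglandin receptor EP2, rose from 6.86 ± 1.41 to 14.4 ± 1.36 RPKM and Cd7, an immunoglobulin-family protein of T cells, from 4.42 ± 0.908 to 9.14 ± 1.22 (SD, n = 3 each). Of 24 costimulatory and inhibitory receptors 2 rose and 7 lay wholly higher (29.2%, against 8.92% of all genes), with a median of 0.25. Btla, an inhibitory receptor, stood at 0.78 ± 0.16 (limma adjusted p = 0.0809) and the costimulator Cd28 at 0.58 ± 0.14 (limma adjusted p = 0.153). Of 13 tetraspanins Cd9 was the only call and the median was 0.00. Fas and Lta of the TNF family stood at 0.86 ± 0.19 and 1.00 ± 0.23, not called, and Bcl2, which blocks apoptosis, at 0.76 ± 0.15 (limma adjusted p = 0.0515).

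The Ms4a genes on chromosome 19 encode related proteins that cross the membrane several times. Ms4a4b, which modulates T cell proliferation, rose from 26.7 ± 3.70 to 60.4 ± 9.22 RPKM, Ms4a6b from 24.3 ± 2.54 to 50.8 ± 5.08 and Ms4a6c from 2.16 ± 0.784 to 6.49 ± 1.07 (SD, n = 3 each). Ms4a6c had 2.613, 1.257 and 2.617 RPKM in WT and 5.484, 6.359 and 7.619 in KO. The log2 changes were 1.15 ± 0.16, 1.04 ± 0.13 and 1.27 ± 0.21 (limma adjusted p = 0.0112, 0.0112 and 0.0248). Ms4a4c stood at 0.76 ± 0.23 and Ms4a6d at 0.39 ± 0.30, not called. Ms4a1, the B cell gene CD20, stood at -0.39, not called, and the 6 measured members had a median of 0.90. Summed, the 6 genes had 58.8, 56.0 and 68.1 RPKM in WT and 110, 141 and 139 in KO. These genes are close copies of each other, so the split of reads among them is uncertain.

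Genes that interferon induces were mixed. Tgtp1 and Tgtp2, near-identical interferon-inducible GTPases whose reads cannot be separated with certainty, rose by 1.10 ± 0.20 and 1.09 ± 0.21 on the log2 scale (limma adjusted p = 0.0403 and 0.0473). Epsti1, an interferon-responsive gene, rose by 0.81 ± 0.15 on the log2 scale. Ifitm2, which blocks viral entry, rose from 2.76 ± 0.316 to 7.68 ± 1.52 RPKM, and Slfn1, a schlafen gene of resting T cells, from 23.3 ± 5.65 to 50.3 ± 6.31 (SD, n = 3 each). The rises named above are not members of the list of interferon-stimulated genes. Of its 31 tested members none rose, Apobec3 fell and the median was 0.08. In that list 6 lay wholly higher (19.4%, against 8.92% of all genes) and 2 wholly lower (6.45%, against 6.27%). Oas1a, a sensor of viral RNA, stood at 0.71 ± 0.23 (limma adjusted p = 0.360).

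Protease genes and protease inhibitors were also among the rises. Serpina3g, a serpin that inhibits cathepsins, had 6.985, 12.765 and 10.779 RPKM in WT and 25.553, 38.502 and 40.929 in KO (log2 change 1.70 ± 0.24, limma adjusted p = 0.0112). Its paralogues are close copies, which makes its count uncertain. Ctss, cathepsin S, had 12.887, 13.905 and 11.765 RPKM in WT and 19.804, 44.927 and 41.313 in KO. KO replicate 1 of Ctss was much nearer to WT than to the other KO libraries (log2 change 1.31 ± 0.25, limma adjusted p = 0.0450). Timp2, an inhibitor of metalloproteinases, rose from 7.05 ± 0.615 to 16.2 ± 3.11 RPKM (SD, n = 3 each; log2 change 1.08 ± 0.17, limma adjusted p = 0.0149). The cathepsin list as a whole did not share this: of 21 tested members Ctss and Serpina3g were the calls, 14 were below 0 and the median was -0.13, with the lysosomal carboxypeptidase Ctsz at 121 ± 27.0 RPKM in WT and 78.8 ± 5.12 in KO (SD, n = 3 each; not called). Mmp25, a membrane-bound metalloproteinase, stood at -1.56 ± 0.31 (limma adjusted p = 0.0559).

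Ctss is also a marker of macrophages and dendritic cells. Of the 20 listed markers of those cells 7 were in the table, and they summed to 16.7 to 20.8 RPKM in VAT WT and 25.2 to 52.6 in VAT KO. Without Ctss the other 6 summed to 6.91, 6.85 and 4.96 RPKM in WT and 5.44, 6.98 and 11.3 in KO, which overlap. The markers Csf1r and Adgre1 did not exceed 0.366 RPKM in any VAT library. Cybb, a subunit of the phagocyte oxidase, had 1.282, 2.535 and 1.271 RPKM in WT and 2.459, 4.127 and 3.208 in KO (log2 change 0.68 ± 0.25, limma adjusted p = 0.486), and Fcer1g, a chain of Fc receptors, had 1.014, 0.923 and 0.417 in WT and 0.254, 0.160 and 3.953 in KO. The groups of Cybb overlapped in KO replicate 1 and WT replicate 2, and Fcer1g was high in KO replicate 3 alone. Markers of B cells (11 of 17 in the table) summed to 102, 232 and 64.5 RPKM in WT replicates 1 to 3 and to 80.2, 60.4 and 123 in KO replicates 1 to 3, so WT replicate 2 stood out and the groups overlapped. All 8 tested B cell markers had a change below 0, with a median of -0.54, and none was called or had groups wholly apart. For adipocytes only Lipe, of 12 markers, was in the table, at 1.633 to 2.961 RPKM in VAT, and none of 9 red cell markers was. Of 13 CD8, NK and gamma-delta T cell markers 2 were in the table (4.93 to 18.4 RPKM in VAT WT and 7.88 to 11.6 in VAT KO), and of 12 neutrophil and mast cell markers 3 were, at 132 to 218 RPKM in VAT WT and 115 to 137 in VAT KO, nearly all of it Mmp9. Of 15 stromal markers 4 were in the table, mainly the filament gene Vim, which T cells also express, at 272 ± 34.2 RPKM in WT and 212 ± 9.83 in KO (SD, n = 3 each), while the endothelial and leukocyte gene Pecam1 stood at 5.63 ± 1.55 and 10.4 ± 1.52. The part of other cells in the results was not tested.

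The other rises belong to no list. Rflnb, a filamin-binding protein, showed the largest change, with 1.142, 0.611 and 1.805 RPKM in WT and 3.786, 8.232 and 11.736 in KO. KO replicate 1 was again the lowest KO library and still above WT (log2 change 1.95 ± 0.31, limma adjusted p = 0.0182). The uncharacterised 1110032F04Rik rose from 0.231 ± 0.305 to 3.26 ± 1.03 RPKM and Nsg2, a vesicle protein known from neurons, from 0.527 ± 0.505 to 3.33 ± 1.63 (SD, n = 3 each). Evl, an actin regulator of the Ena/VASP family, rose by 0.96 ± 0.18 on the log2 scale, Pde2a, a phosphodiesterase of cyclic nucleotides, by 1.02 ± 0.18, Tent5c, a poly(A) polymerase, by 1.16 ± 0.22 and Parp8, of the ADP-ribosyltransferase family, by 1.18 ± 0.21. Trim59, a ubiquitin ligase of the TRIM family, rose by 0.83 ± 0.16 and BC147527 by 1.03 ± 0.18. Across the 32 rises KO replicate 1 was the lowest KO library in 28, and across the 12 falls WT replicate 3 was the highest WT library in 11.

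**Figure D3:**
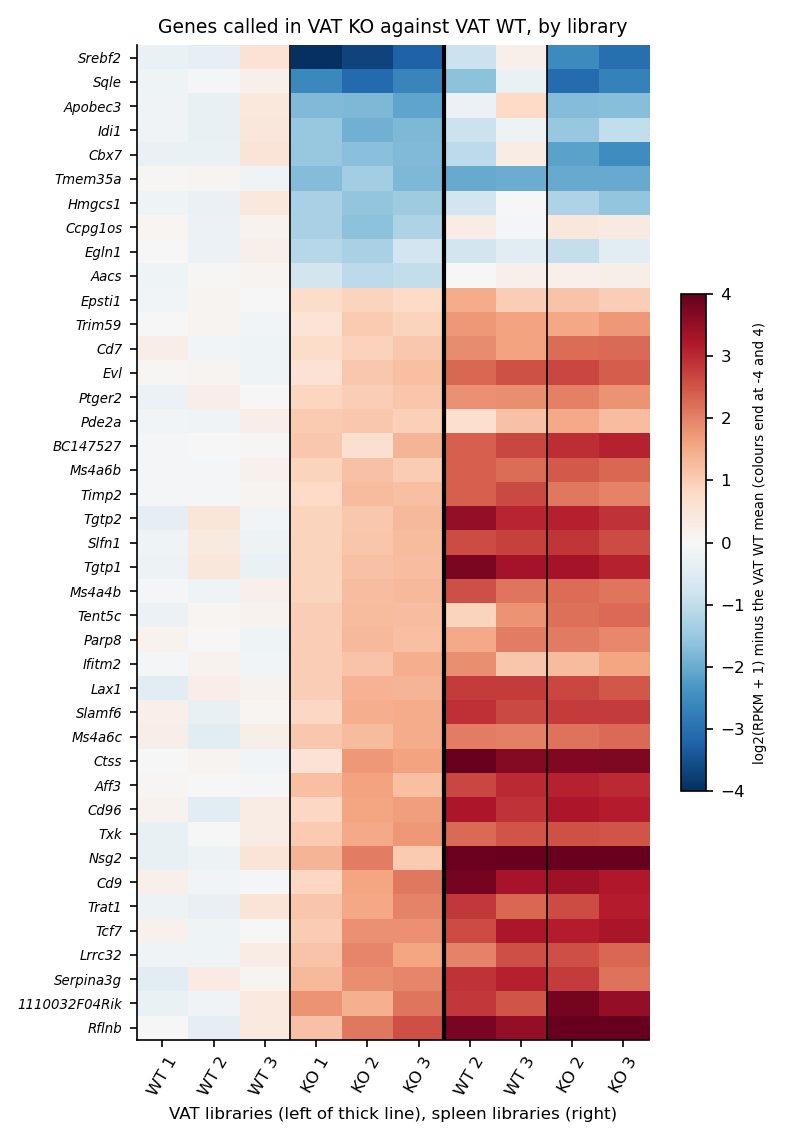
Called genes (rows; 41 of the 44) in each library (columns), coloured by log2(RPKM + 1) minus the VAT WT mean, VAT libraries left of the thick line and spleen libraries right of it. The first VAT KO column is paler than the other KO columns for most rises, and the falls Srebf2, Sqle, Apobec3 and Cbx7 are also lower in spleen KO than in spleen WT.

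The spleen libraries gave the same genes side by side, with 2 libraries a group. No gene passed in spleen (limma, 0 called), where 812 had an unadjusted p under 0.05. The targeted gene Srebf2 did not pass there either, at a log2 change of -2.45 ± 0.40 (limma adjusted p = 0.241). The median SD per gene was 0.277 in spleen WT and 0.146 in spleen KO, against 0.188 in VAT WT and 0.185 in VAT KO. A count of 0 in spleen therefore does not show an absence of change. The 12 falls had a median change of -1.69 in VAT and -1.17 in spleen, and 10 of the 12 were below 0 in spleen. The 32 rises had a median of 1.22 in VAT and 0.12 in spleen, and 21 of the 32 were above 0 there. Over all 10081 tested genes 5323 were below 0 in spleen, and the median there was -0.02. The called genes were chosen by their change in VAT, and that choice alone can make the spleen change look smaller. The limma interaction, which tests whether the effect differed between the tissues, called 0 genes, with a smallest adjusted p of 0.306, and 693 genes had an unadjusted p under 0.05. It called 2 genes with a pseudocount of 0.1, 2 without spleen KO replicate 2 and 519 without spleen WT replicate 3, which leaves 1 spleen WT library. Among the named calls the largest interaction was 2.19 ± 0.38 for Serpina3g (limma adjusted p = 0.306), whose spleen levels were 85.7 ± 9.33 RPKM in WT and 61.7 ± 19.5 in KO (SD, n = 2 each). Over both cholesterol synthesis lists the median was -0.56 in VAT and -0.53 in spleen. In spleen 18 of 21 enzymes were below 0, where 5323 of all 10081 tested genes were.

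Genes that mark VAT Tregs were mostly lower in level, with few calls. Of the 19 tested receptors and effectors of adipose Tregs, 14 were below 0 and 8 lay wholly below WT (42.1%, against 6.27% of all genes), with a median of -0.30, while Ptger2 was the only call and rose. Summed, the 19 had 3446, 3141 and 3323 RPKM in WT replicates 1 to 3 and 2728, 2663 and 2536 in KO replicates 1 to 3, so the groups were apart. The chemokine Cxcl2 had 221 ± 39.1 RPKM in WT and 141 ± 15.8 in KO, and the chemokine receptor Ccr1 had 67.8 ± 7.92 and 41.4 ± 6.50 (SD, n = 3 each), neither called. Itgae, the integrin chain CD103, went the other way, with 2.679, 0.981 and 3.77 RPKM in WT and 5.314, 10.861 and 7.488 in KO (log2 change 1.40 ± 0.31, limma adjusted p = 0.0921). Of 14 transcription factors of adipose Tregs 10 were below 0, with a median of -0.15 and no call. Pparg had 41.491, 38.615 and 33.605 RPKM in WT and 25.38, 22.562 and 25.805 in KO, wholly apart but not called (log2 change -0.60 ± 0.18, limma adjusted p = 0.290). Bhlhe40 stood at 0.64 ± 0.22, Id2 at -0.31 ± 0.14 and Gata3 at -0.28 ± 0.13, and Il1rl1, the IL-33 receptor, at -0.39 ± 0.18.

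Core Treg genes were mixed. Of 20 tested, Lrrc32 rose, 12 were above 0, 6 lay wholly higher and 3 wholly lower, with a median of 0.18 that was 0.06 without VAT WT replicate 2. Izumo1r, of the folate receptor family, had 21.503, 31.894 and 16.441 RPKM in WT and 37.434, 63.261 and 60.444 in KO. Its log2 change was 1.19 ± 0.25 (limma adjusted p = 0.0816). Nt5e, the ectoenzyme CD73, stood at 1.05 ± 0.22 (limma adjusted p = 0.0827) and Gpr83, a Treg-enriched receptor, at 1.02 ± 0.30 (limma adjusted p = 0.310). The 19 AP-1 and immediate early genes, which respond to activation and to tissue digestion, summed to 6520, 5491 and 6078 RPKM in WT replicates 1 to 3 and to 5350, 4881 and 5038 in KO replicates 1 to 3, with a median change of -0.20 and no call. Of the 19, 14 changes were below 0 and 5 above 0, and they ran from -0.57 to 0.92. Among the lower ones, Jund stood at -0.41 ± 0.13 and Fosb at -0.51 ± 0.19. The part of tissue digestion in the results was not tested.

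In the fit of the 6 VAT libraries alone, 60 genes passed, of which 41 were among the 44 and 19 were not. Of these 19, 14 were lower in KO and included genes of high level in VAT Tregs. Klrg1, an inhibitory receptor of differentiated cells, had 935.373, 906.75 and 807.786 RPKM in WT and 685.2, 579.144 and 543.402 in KO (log2 change -0.56; limma adjusted p = 0.0441 in that fit and 0.492 with the spleen libraries). Lgals3, a galectin, had 145 ± 19.4 RPKM in WT and 86.4 ± 2.99 in KO, and Ccr2, a chemokine receptor, had 95.2 ± 5.20 and 65.5 ± 5.37 (SD, n = 3 each; limma adjusted p = 0.0204 and 0.0498 in that fit). The lysosomal lipid genes Gm2a, the GM2 activator, and Asah1, acid ceramidase, stood at -0.58 ± 0.12 and -0.73 ± 0.15. The sheddase Adam8 stood at -0.79 ± 0.23. These SEs are from the model with the spleen libraries. In the fit of the 6 VAT libraries alone the limma adjusted p was 0.0255 for Gm2a, 0.0447 for Asah1 and 0.0130 for Adam8. Among the 5 higher genes were Prf1, perforin, at 1.72 ± 0.198 RPKM in WT and 4.86 ± 0.758 in KO, and Slc25a33, a mitochondrial pyrimidine nucleotide carrier, at 4.46 ± 1.96 and 12.2 ± 1.90 (SD, n = 3 each).

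Housekeeping families held no call. None of the 40 cytosolic ribosomal protein genes (median 0.13), 35 oxidative phosphorylation genes (median -0.02), 31 proteasome subunits (median 0.01) or 32 proliferation genes (median 0.01) passed the test. Of the ribosomal protein genes 38 of 40 were above 0, where 54.1% of all tested genes were. Among the 4 families 1 proteasome and 1 proliferation gene lay wholly lower in KO, and none lay wholly higher. Glycolysis (20 tested, median 0.05), the unfolded protein and amino acid stress list (27 tested, median -0.06) and MHC class I presentation (22 tested, median -0.05) also held no call. The 25 heat shock and chaperone genes had a median of 0.22, which was 0.08 without VAT KO replicate 3, and no call.

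**Figure D4:**
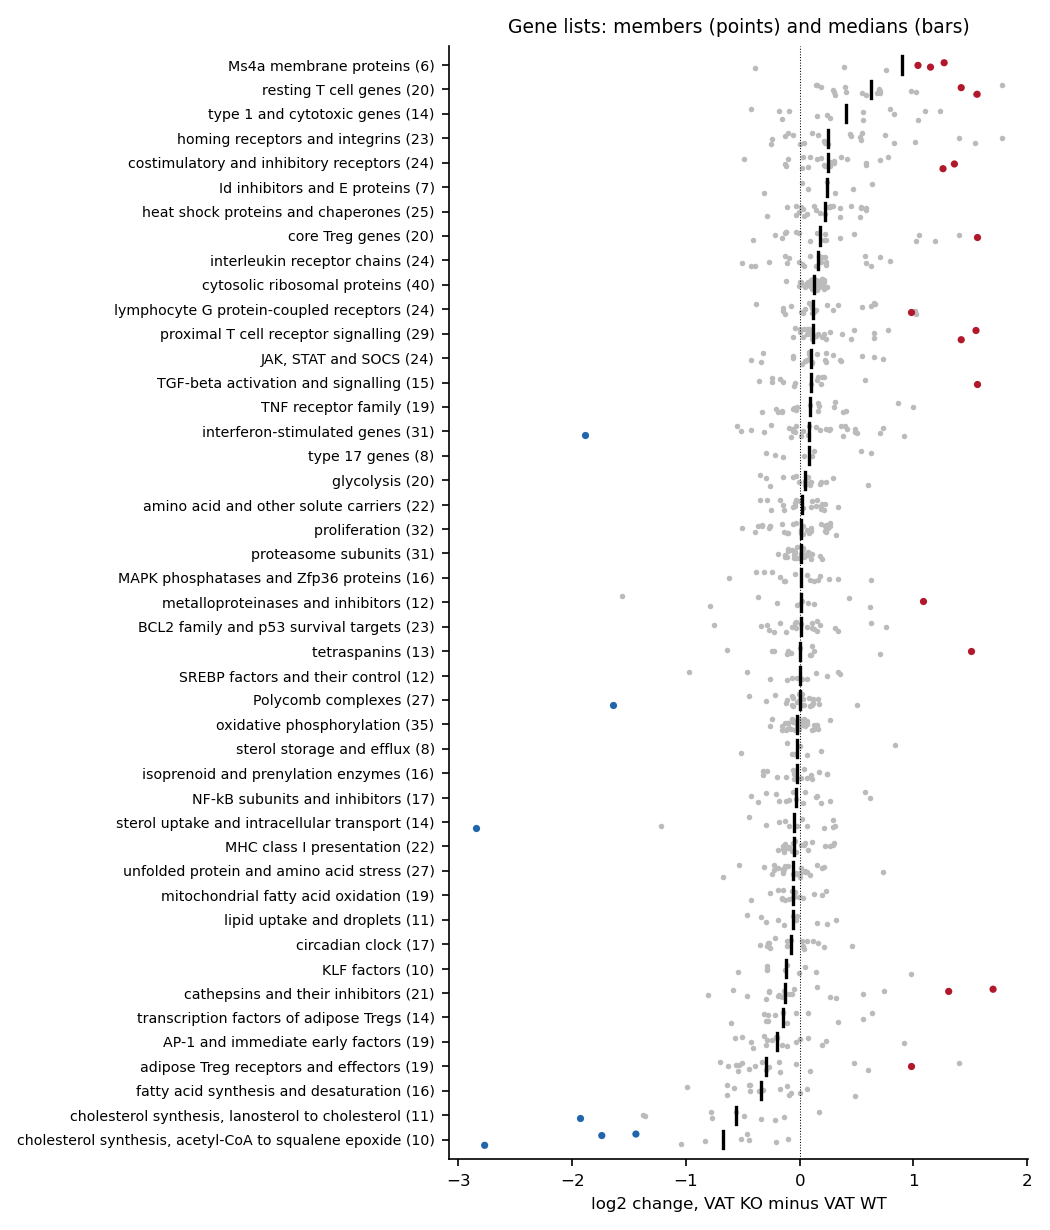
Log2 change of VAT KO against VAT WT for the tested members of each gene list (points; the number tested in brackets), with the median of the list as a black bar and called genes in red (higher) or blue (lower). The cholesterol synthesis lists lie lowest, the Ms4a and resting T cell lists highest, and the ribosomal, proteasome and oxidative phosphorylation lists close to 0.

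The number of calls depended on single libraries. It was 2 without VAT WT replicate 1 (Srebf2 and Sqle), 31 without WT replicate 2 and 27 without WT replicate 3. It was 43 without VAT KO replicate 1, 5 without KO replicate 2 (Srebf2, Sqle, Tmem35a, BC147527 and 1110032F04Rik) and 2 without KO replicate 3 (Srebf2 and Sqle). With either spleen KO library left out it was 19, and without spleen WT replicate 2 or 3 it was 63 or 58. All 44 kept the sign of their change in each of these fits. Over them, Tcf7 ranged from 1.42 to 1.83 on the log2 scale (limma adjusted p between 0.00355 and 0.102), Lrrc32 from 1.36 to 1.77 (0.00693 to 0.102), Hmgcs1 from -1.57 to -1.22 (0.00952 to 0.199) and Sqle from -2.87 to -2.61 (0.000167 to 0.0347).

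**Figure D5:**
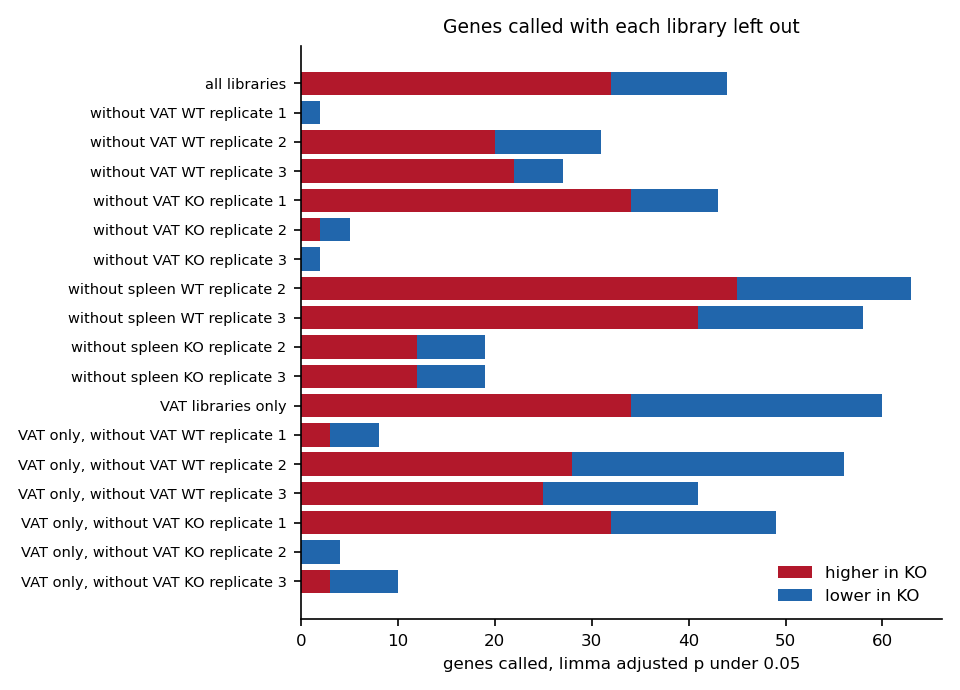
Number of genes called at a limma adjusted p under 0.05 (horizontal; red higher and blue lower in KO) with all libraries, with each library left out in turn, and with only VAT libraries. The bars are shortest, at 2 to 10 genes, without VAT WT replicate 1, VAT KO replicate 2 or VAT KO replicate 3.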

How the data were processed

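Bulk RNA was sequenced from sorted Tregs. Per the labels' protocols, RNA was purified with the Quick-RNA MicroPrep kit, and libraries were made with SMART-seq v4 and Nextera XT, which does not mark the strand. STAR and mm10 are named in the submitters' processing notes. Per the file headers, the authors deposited RPKM values. How reads were counted, with which gene models, filter and denominator, is not given in the sources used here. Depth is therefore unknown, and no counting error can be given. Spleen KO replicate 1 was not analysed here, and 1 sample column without a matching label was not used. The table shows reads of overlapping genes and close copies as the authors assigned them.

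Genes with at least 1 RPKM in at least 2 VAT libraries (10081) were analysed as log2(RPKM + 1). A limma model (3.58.1, R 4.3.3, trend on, robust off) with 4 group means and no covariate was fitted to all 10 libraries, with 6 residual and 6.38 prior degrees of freedom, and two-sided p-values were adjusted by Benjamini-Hochberg over all tested genes. Srebf2 and Foxp3 were also tested by exact permutation. Gene lists (53) were described by counts and medians without a test. The members and lists were chosen with earlier results of these data known. All called genes were named except 3 (2 lower, 1 higher) that are not reported here, with values by library for the falls and the 12 largest rises at 5 RPKM or more, and in each list up to 4 members by rank of p; the cholesterol synthesis enzymes were walked through in order. Coordinates and promoters are from RefSeq on GRCm38.p6, matched by Entrez identifier for 10987 of 10992 genes. In 10 simulated tables of 10081 genes, each with 200 changed, limma found 66.9% of the 2-fold changes and 97% of the 4-fold changes, and 5.7% of its calls were false. The changed genes were drawn only from those averaging above 5 RPKM in VAT on the log scale. The noise was drawn separately for each gene and library. These rates therefore do not cover genes of lower level or deviations that many genes of a library share. Alternatives were pseudocounts of 0.1 and 5, other filters, 2 scalings, the VAT libraries alone, sample weights, a robust spread, a replicate block and each library left out. Leaving out each library in the VAT-only fit was added after seeing the data.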

Additional observations from a re-analysis of the deposited data

How the results depend on the processing

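Each of the 44 called genes kept the sign of its change in every one of the 20 alternatives in which it was tested. The filter at a mean of at least 5 RPKM left some of them untested. Srebf2 alone passed in all 20. Sqle passed in 19, and the remaining one was that filter, which left it out of the test. Calls (higher and lower) were 23 (13 and 10) with a pseudocount of 5, 33 (27 and 6) with a mean of at least 5 RPKM, 60 (34 and 26) with the 6 VAT libraries alone and 81 (59 and 22) with array weights; the cause was not tested. Leaving out 1 library gave 2 to 63 calls (0 to 45 higher, 2 to 18 lower), and in the VAT-only fits, added after seeing the data, 4 to 56 (0 to 32 higher, 4 to 28 lower; 8 without WT replicate 1, and 10, of them 7 lower, without KO replicate 3). The interaction called 2 genes with a pseudocount of 0.1 and 0 to 519 with 1 library left out, 519 without spleen WT replicate 3 and 2 without spleen KO replicate 2, with fewer spleen samples in those fits. Foxp3 turned from -0.01 to 0.00, 0.00 and 0.08 without VAT WT replicate 1, WT replicate 2 or KO replicate 2, and its lowest value was -0.07, without KO replicate 3.

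Same-numbered VAT libraries did not deviate together (correlations of deviations from the group means -0.095, 0.047 and -0.149), so the numbers were not taken as pairs. With the replicate block, 61 genes passed (39 higher and 22 lower), 37 of them among the 44. Unknown depth, 3 libraries a group and a spread shared with spleen limit the precision.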
